A study of Mus musculus with 12 samples.

Results

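The 10 genes described here make, load and export the chylomicron, the lipid particle in which absorbed dietary fat leaves the small intestine. They are Apoa1, Apoa4, Apob, Apoc3, Mttp, Fabp1, Fabp2, Dgat1, Dgat2 and Mogat2, and they were chosen by symbol in the mouse GENCODE annotation. All 10 were present among the 55414 genes of the count table, and all 10 were among the 13057 genes that passed the filter on low counts. Bulk RNA-seq was measured in 12 libraries of C57BL/6J mice, with 3 libraries in each of 4 groups: Paneth cells and non-Paneth cells of WT mice, and Paneth cells and non-Paneth cells of GRvillinKO mice (GRKO). Both cell fractions were sorted from small intestinal crypts, and the methods describe young adult mice and give for Paneth cells a CD24+ cKIT+ gate with medium to high side scatter that left out blood and endothelial cells. The gate for non-Paneth cells, the intestinal segment, and how the labelled deletion was made in each GRKO mouse are not given in the sources used here, and the labels name no treatment. The KO is named after villin, a gene active throughout the intestinal epithelium, so that its name covers both fractions. Groups were taken from the sample titles, since a genotype field of the labels contradicts them.

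In an enterocyte, the absorptive cell of the villus, fatty acids and monoglycerides taken up from the lumen are carried through the cytosol by fatty acid binding proteins. They are joined again to triglyceride at the endoplasmic reticulum, where apolipoprotein B is loaded with lipid by the microsomal triglyceride transfer protein, and other apolipoproteins join the particle before it is secreted. Enterocytes mature as they leave the crypt, whereas Paneth cells stay at its base and secrete antimicrobial proteins.

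The apolipoprotein genes Apoa1, Apoc3 and Apoa4 lie side by side on chromosome 9 (GRCm39, GENCODE vM39). Apoa1 spans chr9:46139878-46142212 on the plus strand, and 315 bases further Apoc3 spans chr9:46142527-46146934 on the minus strand. Apoa4 follows after 5060 bases at chr9:46151994-46154757, on the plus strand. Dgat2 (chr7:98802491-98831991) and Mogat2 (chr7:98868291-98887830), both on the minus strand, are 36300 bases apart. The other 5 genes lie apart from the rest of the 10: Apob at chr12:8027648-8066835, Mttp at chr3:137795612-137850729, Fabp1 at chr6:71176809-71182016, Fabp2 at chr3:122688721-122693155 and Dgat1 at chr15:76385083-76396476. No exon of any of the 10 overlapped an exon of another gene on its own strand. On the opposite strand, 69.8% of the exonic bases of Apoa4 were shared with Gm10680 and Gm47528, and 54.6% of those of Dgat1 with Hsf1. The share was 22.9% for Fabp2 (4933405D12Rik), 12.7% for Mttp (Gm43691 and Trmt10a), 10.1% for Mogat2 (Gm45012) and 0.2% for Apob (Gm33037). The libraries were stranded, but no source used here states which strand was counted.

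Promoter windows of RefSeq (GRCm38.p6) were on hand for 6 of the 10 genes, Apoa1, Apoa4, Apob, Mttp, Fabp1 and Fabp2. The 250 bases before each start were searched on both strands for CAAAGNNCA, the core letters of sites bound by HNF4, a nuclear receptor of the enterocyte lineage. Of the 6 windows 3 held it, beside 5.49% of all 32851 windows of that length. The 3 are printed because the genes share a tissue and moved together in the comparisons that follow, with the matched letters in capitals, 5′ to 3′ on the plus strand. Each is cut where the earlier of the RefSeq and GENCODE starts lies, so that only upstream bases are shown.
Apoa4 (chr9:46240594-46240695, GRCm38.p6): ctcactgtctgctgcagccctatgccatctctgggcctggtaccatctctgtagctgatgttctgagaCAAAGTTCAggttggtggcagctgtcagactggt
Apob (chr12:7977427-7977647, GRCm38.p6): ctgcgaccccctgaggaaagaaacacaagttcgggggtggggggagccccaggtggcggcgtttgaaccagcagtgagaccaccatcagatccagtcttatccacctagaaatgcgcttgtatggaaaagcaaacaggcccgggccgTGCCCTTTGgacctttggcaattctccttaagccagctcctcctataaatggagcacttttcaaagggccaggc
Fabp2 (chr3:122894822-122895071, GRCm38.p6): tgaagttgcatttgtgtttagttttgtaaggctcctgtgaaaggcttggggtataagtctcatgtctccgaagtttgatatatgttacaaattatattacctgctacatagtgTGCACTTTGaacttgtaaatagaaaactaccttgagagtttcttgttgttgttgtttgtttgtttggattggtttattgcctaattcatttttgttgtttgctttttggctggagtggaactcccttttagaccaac
The match begins 182 bases before the RefSeq start in Apoa4, 103 in Apob and 137 in Fabp2, and it lies on the plus strand in Apoa4 and on the minus strand in the other two. The letters TATAAA were found in 2 of the 6 windows, those of Apob and Fabp1, beside 12.4% of all windows. In Fabp1 they lie 30 to 25 bases before the RefSeq start. The GENCODE start of Fabp1 is 54 bases upstream of the RefSeq start, so this match is not upstream of both. The RefSeq start of Mttp, whose window held neither set of letters, lies 12041 bases upstream of its GENCODE start. The bases just before that GENCODE start were therefore not searched. A match or its absence describes letters only, and no binding was measured here.

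Before the 10 genes, the labels were checked. Nr3c1, which encodes the glucocorticoid receptor, had 134.6, 150.9 and 159.5 counts per 1000000 of all gene counts (CPM) in WT non-Paneth and 29.2, 19.6 and 36.2 CPM in GRKO non-Paneth cells. In Paneth cells it had 33.7, 33.0 and 41.1 CPM in WT and 5.28, 4.73 and 12.1 CPM in GRKO. The groups did not overlap in either fraction, in the direction of the labels, and transcript remained in every GRKO library. Library totals lay between 11126297 and 15910292 counts. Lyz1, the lysozyme of Paneth cells, had 97540.4 to 162529 CPM in the Paneth libraries and at most 398 CPM in each non-Paneth library. In non-Paneth cells the summed enterocyte markers reached 15774 to 18218 CPM in WT and 5752 to 7277 CPM in GRKO. The 7 immune and stromal markers summed to 1.17 to 2.16 CPM in WT and 0.955 to 9.87 CPM in GRKO non-Paneth libraries, and to 10.9 to 12.2 CPM in WT and 8.11 to 29.0 CPM in GRKO Paneth libraries. Of these Ptprc, the leukocyte antigen CD45, had up to 23.3 CPM in GRKO Paneth libraries and Lyz2, a lysozyme, up to 11.3 CPM in WT Paneth libraries. Cd3e and Cd79a of lymphocytes and Col1a1 of stroma stayed under 0.70 CPM in all 12. With scaling by library totals alone, the log2 fold change of all genes had a median of -0.68 and -1.05 between Paneth and non-Paneth cells in WT and GRKO mice, and of 0.31 between GRKO and WT in non-Paneth cells. The split of genes called higher and lower in the last comparison moved with it, from 2283 and 2586 to 4348 and 1478.

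The WT Paneth library of replicate 2 stood apart from the other 2 of its group. All 10 genes had their highest WT Paneth level in it, at 1.04 times (Dgat1) to 8.71 times (Apoa1) the higher of the other 2 libraries. So did 10 of 11 enterocyte markers, among them Lct at 6.94 times and Alpi at 6.24 times, but 0 of 5 stem cell, 0 of 6 proliferation and 0 of 5 tuft cell markers. Of the other marker lists, 5 of 8 Paneth, 1 of 6 goblet and 1 of 6 enteroendocrine markers were highest in it. So were 1 of 4 proximal, 2 of 4 distal and 2 of 7 immune and stromal markers. The summed enterocyte markers had 826, 1155 and 942 CPM in the WT Paneth libraries, and 718 to 1440 CPM in those of GRKO. This sum was highest in replicate 2 among the WT Paneth libraries and within the range of the GRKO ones. Markers that differed little, such as Vil1 (1.03 times), add to the sum. The median of the 11 enterocyte markers in replicate 2 was 3.61 times the higher of the other 2 WT Paneth libraries. Both WT libraries of replicate 2 carried Xist (127 CPM in Paneth and 257 CPM in non-Paneth cells), against at most 0.521 CPM in the other 10. All GRKO libraries are among those 10. Leaving out WT Paneth replicate 2 thus leaves out the only Paneth library with Xist at such a level. Sex entered no fit, and its part was not tested. The part of other cell types in the values of WT Paneth replicate 2 was not tested.

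In WT non-Paneth cells the 10 genes together took up 2.65 to 2.96% of all gene counts. In GRKO non-Paneth cells they took up 0.628 to 0.845%, and in Paneth cells 0.0296 to 0.122% in WT and 0.0223 to 0.0344% in GRKO. The highest of the WT Paneth values was that of replicate 2, and the other 2 libraries had 0.0296 and 0.0312%.

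Genes were compared with each other per kilobase of merged exons, scaled to the same total in every library. On this per-length scale Fabp2 (23476 ± 4501, SD, n = 3), the intestinal fatty acid binding protein, and Apoa1 (19977 ± 1556), the main protein of high density lipoprotein that also rides on chylomicrons, led in WT non-Paneth cells and their ranges overlapped. Apoa4 (9641 ± 3902), which is secreted with chylomicrons, and Fabp1 (5500 ± 1415), the binding protein that the liver also makes, followed, each with a range apart from its neighbours. Mttp, Mogat2, Apoc3, Apob and Dgat1 lay between 876 and 550 per-length units in their means, and the range of each overlapped that of the next. Dgat2 (73.6 ± 15.3) was apart from all of them. In GRKO non-Paneth cells the order of the first 6 genes was the same, from Fabp2 (6770 ± 2661) to Mogat2 (301 ± 37.6). Between the diacylglycerol acyltransferases, which finish triglyceride from diacylglycerol, the per-length level of Dgat1 was 5.56 to 9.87 times that of Dgat2 in WT non-Paneth and 7.39 to 10.8 times in GRKO non-Paneth libraries. These ratios overlapped. The merged exons of Apoc3 count 3159 bases over all its annotated transcripts, and a longer length lowers a value on this scale.

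**Figure D1:**
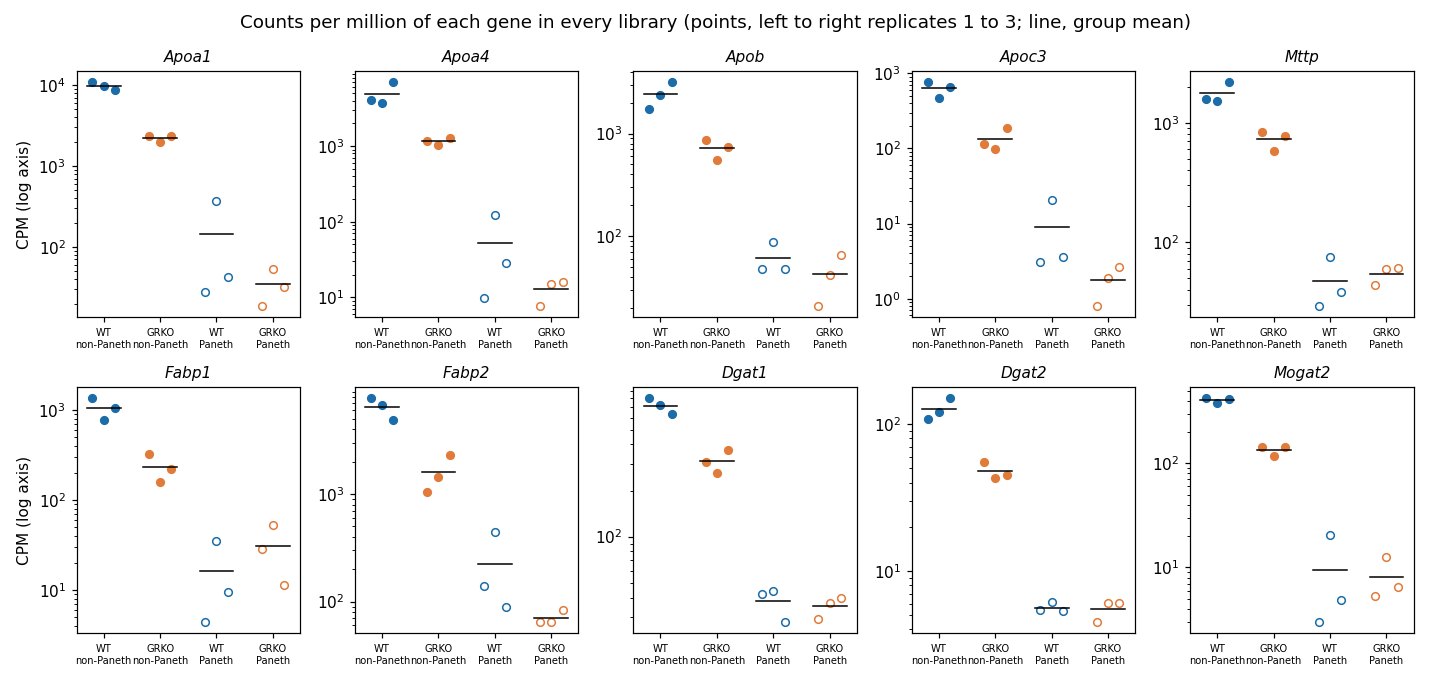
CPM on log axes of each of the 10 genes in the 12 libraries, with 3 points per group for replicates 1 to 3 from left to right and a line at the group mean (filled, non-Paneth cells and open, Paneth cells). For all 10 genes the WT non-Paneth points lie above the GRKO non-Paneth points, and both lie above every Paneth point.

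The first question the design asks is how the sorted Paneth fraction differs from the sorted non-Paneth fraction. In WT mice all 10 genes were lower in Paneth cells, with log2 fold changes from -3.51 (Dgat1) to -5.72 (Apoa4). The median over the 10 was -4.60, beside 0.01 over all genes. Called lower were 10 of 10, where 26.7% of all tested genes were called lower and 24.0% higher (edgeR's quasi-likelihood test, Benjamini-Hochberg adjusted p under 0.05). In none of the 10 did a WT Paneth library reach a WT non-Paneth library, which on the CPM scale also held for 62.4% of all tested genes. The Paneth fraction was also higher in 5 of 5 stem cell, 4 of 4 tested tuft cell and 3 of 6 proliferation markers. It was lower in 11 of 11 enterocyte and 5 of 6 enteroendocrine markers. Of 6 goblet cell markers 3 were lower and 1 higher. The non-Paneth fraction is therefore not an even sample of all other crypt cells.

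The 3 apolipoproteins of the chromosome 9 cluster had the largest drops, with Fabp1 close behind. Apoa1 had 27.7, 365 and 42.0 CPM in WT Paneth cells, a log2 fold change of -5.23 (SE 1.07, adjusted p = 0.0032) against non-Paneth cells. The middle value is the library of replicate 2, and without it the log2 fold change was -7.51 (SE 0.42). Apoa4, at 9.80, 121 and 28.04 CPM, had -5.72 (SE 0.96, adjusted p = 0.00105), and -7.41 (SE 0.58) without that library. Apoc3, whose protein slows the clearance of triglyceride from blood, had 3.06, 20.6 and 3.60 CPM, from 39, 254 and 40 counts. Its log2 fold change was -5.33 (SE 0.80) with and -6.97 (SE 0.44) without replicate 2.

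Apob, the structural protein of the particle, had 47.7, 87.6 and 47.4 CPM in WT Paneth cells, which is 2.51% of its mean in non-Paneth cells. Mttp, which loads lipid onto apolipoprotein B, had 29.3, 75.9 and 38.0 CPM, or 2.71% of its non-Paneth mean. Both fell, with log2 fold changes of -4.57 (SE 0.49) for Apob and -4.44 (SE 0.41) for Mttp. Without replicate 2 these were -5.07 (SE 0.47) and -5.09 (SE 0.26), and the share of Mttp was 1.79%.

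Of the binding proteins, Fabp1 had 4.39, 35.2 and 9.62 CPM and Fabp2 139.5, 448 and 90.0 CPM in WT Paneth cells. Fabp1 fell by 5.21 (SE 0.93, adjusted p = 0.0015) and Fabp2 by 4.05 (SE 0.68, adjusted p = 0.00086) on the log2 scale. Without replicate 2 the log2 fold changes were -6.63 (SE 0.84) for Fabp1 and -5.23 (SE 0.38) for Fabp2, and the share of Fabp2 in its non-Paneth mean went from 3.47 to 1.80%. On the per-length scale Fabp2 had the highest mean of the 10 in Paneth cells too, 238 in WT and 80.4 in GRKO, although its range overlapped that of the next gene in each.

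Of the 10 genes, the diacylglycerol acyltransferases Dgat1 and Dgat2 held the highest shares of their non-Paneth mean in WT mice. Dgat1 had 42.5, 44.4 and 27.6 CPM in WT Paneth cells, 5.32% of its non-Paneth mean. Dgat2 had 5.41, 6.17 and 5.30 CPM, 4.45% of its non-Paneth mean. Neither rested on the library of replicate 2, without which the shares were 4.89 and 4.15%. Mogat2, the enzyme that adds a fatty acid to the absorbed monoglyceride, was also high in that library, with 2.98, 20.6 and 4.85 CPM, and its share of 2.34% dropped to 0.94% without it, and its log2 fold change went from -4.62 (SE 0.70) to -6.09 (SE 0.33). Without replicate 2, the shares of Apoa1, Apoa4 and Apoc3 were 0.353, 0.339 and 0.465%, against 1.48, 1.07 and 1.43% with it.

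In GRKO mice 9 of 10 genes were called lower in Paneth than in non-Paneth cells, where 21.2% of all tested genes were lower and 18.0% higher. Apoa4 changed most (log2 fold change -5.55, SE 0.96), and Apoc3 (-5.26) and Apoa1 (-5.06) followed. Fabp1 missed the threshold, at -1.95 (SE 0.80, adjusted p = 0.088). Its GRKO Paneth libraries had 28.3, 53.1 and 11.5 CPM, against 324, 157 and 220 CPM in GRKO non-Paneth cells, and the groups did not overlap. As a share of its non-Paneth mean Fabp1 was the highest of the 10 in GRKO mice, 13.2% against 1.55% in WT mice, or 7.32 and 0.583% without replicate 2 of each genotype, where it was below Dgat2 (10.5%) and Dgat1 (10.2%) in GRKO mice. Dgat2 stood at 11.6%, Dgat1 at 11.3% and Mttp at 7.50% in GRKO mice, against 4.45, 5.32 and 2.71% in WT mice. For Apoa1 (1.56 against 1.48%) and Apoa4 (1.10 against 1.07%) the shares in GRKO and WT mice were close, but the WT values included the library of replicate 2.

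**Figure D2:**
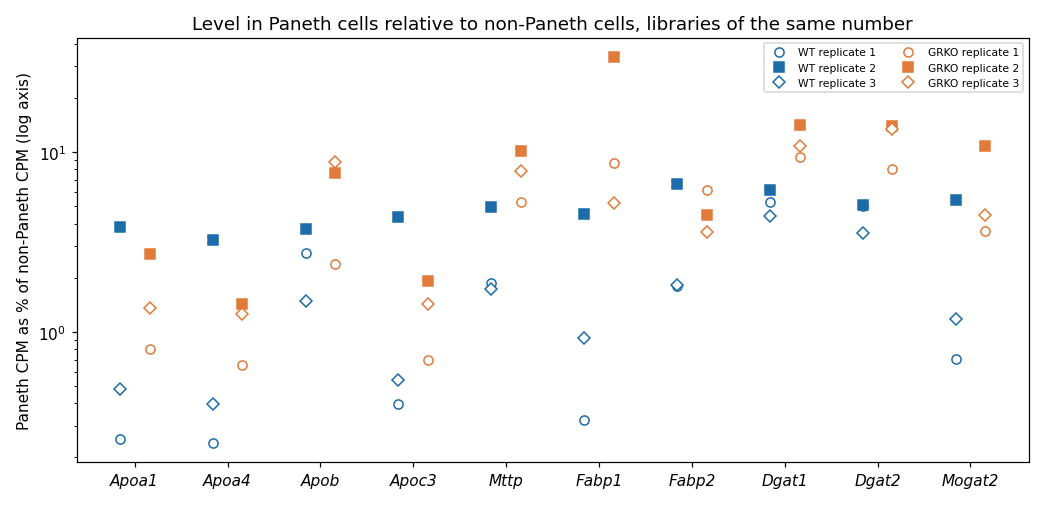
CPM in Paneth cells as a percentage of the CPM in non-Paneth cells (log axis) for each gene, from the libraries with the same replicate number, in blue for WT and orange for GRKO, with filled squares for replicate 2. WT replicate 2 is the highest of the WT points for all 10 genes, as for Apoa1 (3.81%, against 0.254 and 0.477%), and the points of Dgat1 and Dgat2 lie closest together.

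The second question is what the deletion changed. In GRKO non-Paneth cells all 10 genes were below every WT non-Paneth library, which on the CPM scale held for 16.3% of all tested genes. Of the 10 genes 8 were called lower and 0 higher, where 19.8% of all tested genes were lower and 17.5% higher. The median log2 fold change was -2.17, beside 0.02 over all genes. In bulk RNA, fewer cells of a type and less RNA per cell cannot be told apart.

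Dgat1 and Dgat2 had the smallest errors. Dgat2 had 108, 121 and 150 CPM in WT and 55.6, 42.9 and 45.2 CPM in GRKO non-Paneth cells, and fell by 1.69 (SE 0.15, adjusted p = 5.2e-06) on the log2 scale. Dgat1 had 802, 719 and 630 CPM in WT and 309.5, 259 and 367 CPM in GRKO, and fell by 1.49 (SE 0.19, adjusted p = 5.6e-05). Mogat2 had 422, 382 and 411 CPM in WT and 144, 117 and 145 CPM in GRKO, 2.99 times lower in the mean, with libraries of each group close to each other. Its error in the fit on all 12 libraries was larger (log2 fold change -1.87, SE 0.60, adjusted p = 0.039).

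Apob and Mttp, which start the particle, were both lower. Apob had 1737, 2358 and 3191 CPM in WT and 871, 550 and 743 CPM in GRKO non-Paneth cells (log2 fold change -2.04, SE 0.43, adjusted p = 0.005). Mttp had 1575, 1528 and 2189 CPM in WT and 830, 584 and 773 CPM in GRKO (log2 fold change -1.56, SE 0.36, adjusted p = 0.0067). Their lowest WT library was 1.99 times (Apob) and 1.84 times (Mttp) as high as their highest GRKO library.

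In the chromosome 9 cluster large fold changes stood beside large errors. Apoc3 had 767, 474 and 664 CPM in WT and 115, 97.6 and 188 CPM in GRKO non-Paneth cells, and fell by 2.53 (SE 0.69, adjusted p = 0.02) on the log2 scale. Apoa1 had 10922, 9603 and 8803 CPM in WT and 2327, 1983 and 2367 CPM in GRKO, a ratio of means of 4.39. Apoa4 had 4086, 3738 and 7064 CPM in WT and 1175, 1039 and 1271 CPM in GRKO, a ratio of means of 4.27. Apoa1 (log2 fold change -2.42, SE 0.94, adjusted p = 0.075) and Apoa4 (-2.38, SE 0.82, adjusted p = 0.0504) missed the threshold, although their groups were as far apart as those of genes that passed. The fit shares 1 spread per gene over the 4 groups, the scattered WT Paneth libraries included. In a fit on the 6 non-Paneth libraries alone the SE of Apoa1 was 0.13 and its adjusted p 8.0e-07, that of Apoa4 0.25 with an adjusted p of 0.00029, and 10 of 10 genes were called lower, where 23.8% of all tested genes were.

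Both fatty acid binding proteins fell. Fabp2 had 7803, 6784 and 4940 CPM in WT and 1047, 1447 and 2326 CPM in GRKO non-Paneth cells (log2 fold change -2.31, SE 0.63, adjusted p = 0.019). Fabp1 had 1357, 781 and 1048 CPM in WT and 324, 157 and 220 CPM in GRKO (log2 fold change -2.46, SE 0.81, adjusted p = 0.042). The ratio of Fabp2 to Fabp1 counts lay between 4.72 and 8.69 in WT and between 3.23 and 10.6 in GRKO libraries, and these ranges overlapped. The call of Fabp1 was lost in 7 and that of Mogat2 in 7 of 15 alternatives, those of Apoc3 and Fabp2 each in 2. Without GRKO non-Paneth replicate 1 or replicate 2, Apob, Mttp, Dgat1 and Dgat2 were the 4 genes still called. Of all tested genes 2343 of 13313 and 2271 of 13285 were called lower in these fits.

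**Figure D3:**
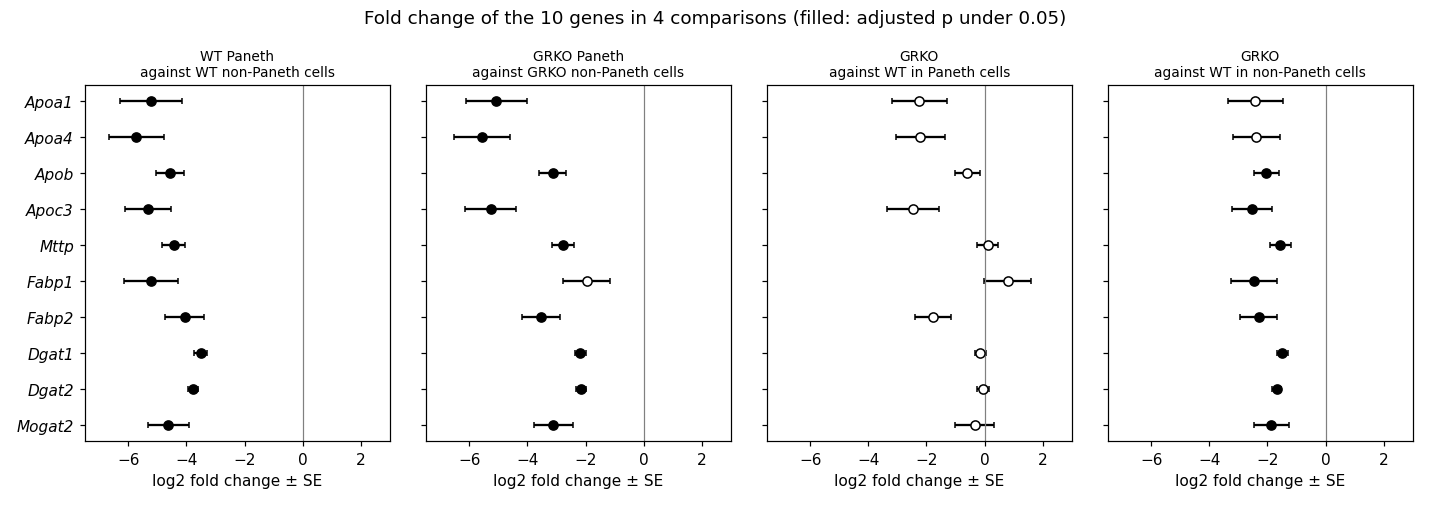
Log2 fold change with its SE of the 10 genes in 4 comparisons, with filled points for an adjusted p under 0.05. In non-Paneth cells all 10 points lie between -1.49 and -2.53, in Paneth cells they lie between -2.46 and 0.79 and none is filled.

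Other cell type markers moved in the same comparison, where 19.8% of all tested genes were lower and 17.5% higher. Of 11 enterocyte markers 8 were called lower in GRKO non-Paneth cells and 0 higher (median log2 fold change -1.91), with Nt5e at -2.60 and Ada at -2.41. All 6 proliferation markers were higher (median 0.72) and their sum was 1969 to 2041 CPM in GRKO against 915 to 1077 CPM in WT. Of 5 stem cell markers 3 were higher, and of 4 tested tuft cell markers 4, with a sum of 92.8 to 370 CPM in GRKO against 3.80 to 10.5 CPM in WT. Of 6 goblet cell markers 2 were lower (Muc2 at -1.24 and Tff3 at -1.03), and 1 of 8 Paneth cell markers (Ang4, 2.35) and 1 of 6 enteroendocrine markers (Gip, 2.52) were higher. Of the markers of proximal and distal small intestine, 0 of 4 and 1 of 4 were called, the latter lower. Their part in the levels of the 10 genes was not tested. Set against the summed enterocyte markers of the same library, the 10 genes together had 1.47 to 1.88 times that sum in WT and 0.989 to 1.31 times in GRKO non-Paneth cells.

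**Figure D4:**
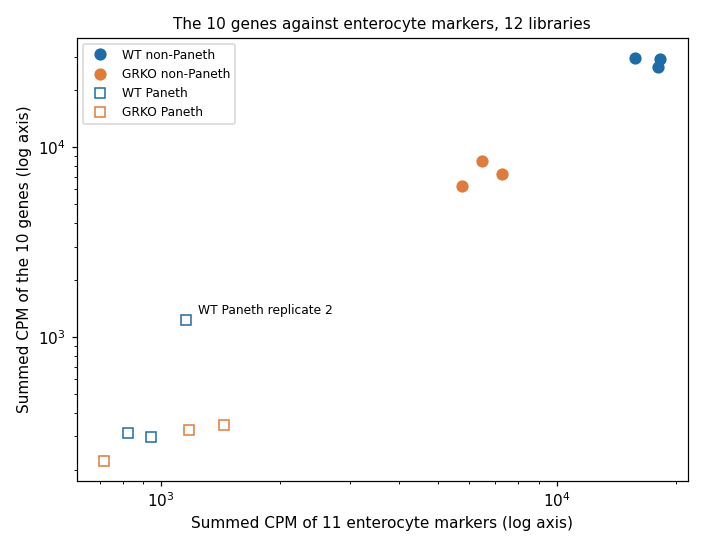
Summed CPM of the 10 genes against the summed CPM of 11 enterocyte markers in the 12 libraries (both axes log), circles for non-Paneth and squares for Paneth cells, blue for WT and orange for GRKO. The non-Paneth libraries of GRKO lie below those of WT on both axes, and WT Paneth replicate 2, with 1225 CPM of the 10 genes, lies above the other 5 Paneth libraries, which have 223 to 344 CPM.

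In Paneth cells 0 of 10 genes were called between GRKO and WT with edgeR, where 3.22% of all tested genes were called in either direction. At an unadjusted p under 0.05 there were 4 of 10, where 26.7% of all tested genes were. DESeq2 called 2, Apoc3 and Fabp2, both lower, where it called 12.3% of all genes it tested. Of the 10 genes, these 2 alone had WT and GRKO Paneth libraries that did not overlap in CPM. The share of all tested genes for which this held was not computed, so nothing is concluded from that count. Fabp2 had 139.5, 448 and 90.0 CPM in WT and 64.5, 64.2 and 83.9 CPM in GRKO Paneth cells (log2 fold change -1.78, SE 0.62, adjusted p = 0.117). Apoc3 had 3.06, 20.6 and 3.60 CPM in WT and 0.799, 1.86 and 2.68 CPM in GRKO, the latter from 10, 26 and 36 counts (log2 fold change -2.46, SE 0.90, adjusted p = 0.129).

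The library of WT replicate 2 set several of these values. Without it Apoc3 was at -0.82 (SE 0.47, adjusted p = 0.29) and Fabp2 at -0.60 (SE 0.30, adjusted p = 0.21). Apoa1 had a log2 fold change of -2.26 (SE 0.95, adjusted p = 0.17) with it and 0.03 (SE 0.30) without it, and Apoa4 -2.22 (SE 0.85) with it and -0.53 (SE 0.44) without it. Mogat2 went from -0.34 (SE 0.68) to 1.12 (SE 0.31, adjusted p = 0.064), Fabp1 from 0.79 (SE 0.82) to 2.21 (SE 0.71, adjusted p = 0.11) and Mttp from 0.11 (SE 0.36) to 0.76 (SE 0.21, adjusted p = 0.065). Without this library 0 of 10 were called as well. Dgat1 (-0.15, SE 0.19) and Dgat2 (-0.05, SE 0.19) had the narrowest errors, and without the library they stood at 0.09 (SE 0.19) and 0.12 (SE 0.21). For Dgat2 the mean was 5.63 ± 0.47 CPM (SD, n = 3) in WT and 5.53 ± 0.91 CPM in GRKO Paneth cells.

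Whether the deletion changed a gene differently in the cell fractions was tested as an interaction of genotype and fraction. It was above 0 for all 10 genes (median 1.38, beside -0.01 over all genes). Called were 3 of 10, where 11.5% of all tested genes were called in that direction. In Paneth cells the log2 fold change was above 0 for Mttp (0.11) and Fabp1 (0.79), neither called. For the others it was less negative than in non-Paneth cells. Dgat2 had an interaction of 1.63 (SE 0.25, adjusted p = 0.00072), Mttp 1.67 (SE 0.51, adjusted p = 0.044) and Dgat1 1.34 (SE 0.27, adjusted p = 0.0043). Fabp1 had the largest value, 3.26 (SE 1.14, adjusted p = 0.083), and did not pass. The call of Mttp held in 10 of 20 alternatives, whereas those of Dgat1 and Dgat2 held in all 20. With a block by genotype and replicate number the call of Mttp was lost (adjusted p = 0.062). For Apoa1 (0.17, SE 1.27), Apoa4 (0.17, SE 1.14) and Apoc3 (0.07, SE 1.20) the error was several times the value, and the sign was negative in 3, 3 and 6 of 20 alternatives. Without WT Paneth replicate 2, 9 of 10 genes were called, where 12.7% of all tested genes were, with 2.44 (SE 0.41) for Apoa1 and 1.85 (SE 0.58, adjusted p = 0.048) for Apoa4. Apoc3 remained outside, at 1.71 (SE 0.55, adjusted p = 0.0503).

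Genes outside the 10 were also called in the interaction. Of the 59 tested pathway genes 25 were called above 0 and 1 below, where 11.5% and 7.28% of all tested genes were. Of 11 enterocyte markers 4 were called above 0 and 0 below (median 1.19), among them Vil1 at 1.93 (SE 0.23). Stem cell and proliferation markers were called below 0, 5 of 5 and 5 of 6, as were 3 of 4 tuft cell markers. Their part in the interaction of the 10 genes was not tested.

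The genes around the 10 in the same pathway were grouped by step, and their counts stand beside the 19.8% of all tested genes that were lower and the 17.5% that were higher in GRKO non-Paneth cells. For uptake and activation, 9 of 14 genes were lower in GRKO than in WT non-Paneth cells and 2 higher. Abcg5 and Abcg8, which together pump plant sterols back into the lumen, fell, with log2 fold changes of -2.12 and -2.11. Npc1l1, through which cholesterol enters, went from a mean of 1268 CPM to 426 CPM (log2 fold change -1.86, adjusted p = 0.0095), and Cd36, a fatty acid transporter, changed by -2.06 (adjusted p = 0.0058). Acsl3 and Acsl4, which join fatty acids to coenzyme A, were the 2 that rose, by 0.53 and 0.99, while Acsl5 of the same family fell by 1.36.

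For resynthesis of triglyceride, phospholipid and cholesteryl ester, 7 of 12 tested genes were lower and 4 higher (median -0.45), and members of 1 enzyme family parted. Soat2, which esterifies cholesterol, fell by 2.02 and Soat1 rose by 0.53. Gpat3 fell by 1.34, while Gpam, which catalyses the same first acylation in mitochondria, rose by 0.76. Lpin2 and Lpin3 fell by 1.55 and 1.48, and Lpin1, another phosphatidate phosphatase, rose by 0.88. In the members, by contrast, Dgat1 and Dgat2 both fell.

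For lipidation, editing and export of the particle, 10 of 14 tested genes were lower and 0 higher (median -0.91). Cidec, a lipid droplet protein, fell by 2.27, and Pla2g12b, which takes part in lipoprotein lipidation beside Mttp, by 1.63. Sar1b, the GTPase of the coat that carries chylomicrons out of the endoplasmic reticulum, fell by 1.03, and its relative Sar1a had 0.22 (adjusted p = 0.21). Apobec1, the enzyme that edits Apob mRNA, fell by 1.43 and its cofactor A1cf by 0.68. Of 7 genes of lipid droplets and their hydrolysis 5 were lower and 0 higher, with Lipe at -1.89 and Lipa at -1.86.

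Of 12 regulators 6 were lower and 1, Plagl2, was higher (median -0.38). Creb3l3, a membrane bound transcription factor of intestine and liver, fell from 322, 298 and 299 CPM to 80.4, 50.8 and 82.5 CPM (log2 fold change -2.39, SE 0.50). Maf fell by 2.11 and Prdm1, which marks the fetal intestine, by 2.04. Hnf4g fell by 1.09, but Hnf4a had 0.24 (adjusted p = 0.19), with a mean of 890 CPM in WT and 1283 CPM in GRKO before the scaling of library composition.

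Between Paneth and non-Paneth cells of WT mice, 9 of 14 uptake genes, 8 of 12 resynthesis genes, 9 of 14 lipidation genes, 5 of 7 droplet genes and 10 of 12 regulators were lower in Paneth cells. Higher were 0, 3, 4, 1 and 0 of them in that order, among them Gpam (1.21), Soat1 (1.43), Sar1a (0.85), P4hb (0.76), the partner of Mttp in the transfer complex, and Mgll (3.17), the monoglyceride lipase. In GRKO mice the lower counts were 9, 5, 6, 4 and 9 and the higher counts 0, 2, 6, 2 and 0. Of all tested genes 26.7% were lower and 24.0% higher in WT mice, and 21.2% and 18.0% in GRKO mice. In WT mice the higher counts of resynthesis and lipidation genes are near the share of all tested genes. Between GRKO and WT Paneth cells 2 of these 59 tested genes were called, a share near the 3.22% of all tested genes, Slc27a2, a fatty acid transporter, at -0.56 and Mia3, which takes part in the export of large cargo, at 0.67.

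**Figure D5:**
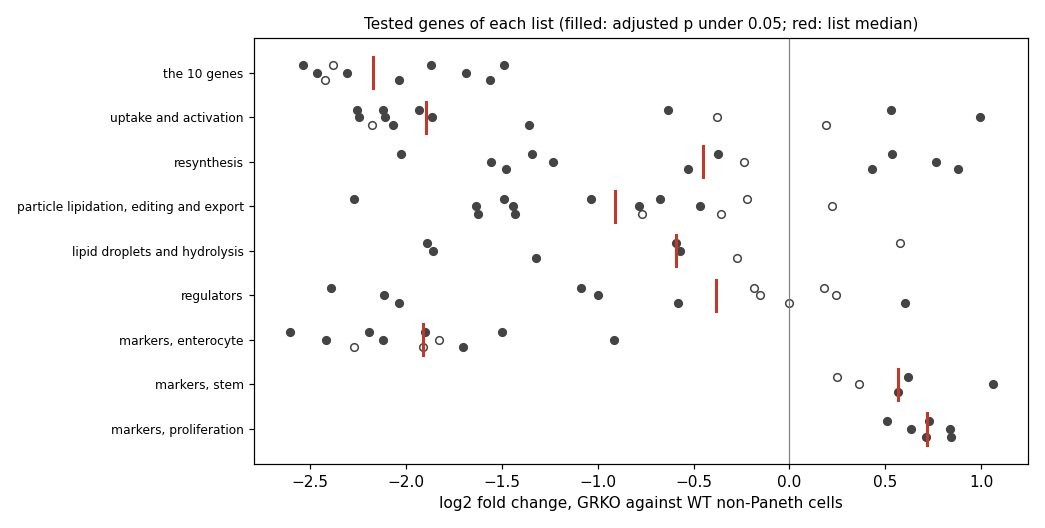
Log2 fold change between GRKO and WT non-Paneth cells of the 10 genes and of the tested genes of the pathway and marker lists, with filled points for an adjusted p under 0.05 and a red line at each median. The median of the 10 genes is -2.17 and that of the uptake genes -1.90, while the resynthesis genes spread on both sides of 0 and all 6 proliferation markers lie above it.

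Over all 12 libraries the 10 genes varied together. Over the 12 libraries the correlation of log2 levels ranged from 0.877 (Fabp1 with Fabp2) to 0.992 (Apoa1 with Apoa4) over the 45 pairs, which share the difference between the groups. With each group's mean removed the median was 0.723, and in the 6 Paneth libraries it was 0.858. Both values include WT Paneth replicate 2, where all 10 genes had their highest WT Paneth level. The part of that library in the 2 medians was not tested. In the 6 non-Paneth libraries it was 0.425, with Fabp2 against Dgat2 at -0.737 and Apob against Dgat2 at 0.949. In WT non-Paneth cells the library with the lowest Apob and Dgat2 had the highest Fabp2, and the library with the highest Apob and Dgat2 the lowest Fabp2. These correlations are descriptions over few libraries that share depth and scaling.

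The genes most like the mean profile of the 10 were sought among 8849 other genes with a mean of at least 10 CPM. Over the 12 libraries they were Slc3a1 (r = 0.998), a subunit of an amino acid transporter, Mpp1 (0.998), Ces2c (0.997), Sult1b1 (0.997) and 2010003K11Rik (0.997). With group means removed they were Ces2e (0.969), Sult1b1 (0.969), Ces2c (0.968), Slc3a1 (0.964) and Mfsd4b2 (0.961), so that 3 genes stood in both. Both rankings include WT Paneth replicate 2, with 1225 CPM of the 10 genes against 312 and 296 CPM in the other WT Paneth libraries. The part of that library in the rankings was not tested. Ces2c and Ces2e encode carboxylesterases and Sult1b1 a sulfotransferase. Slc3a1 had means of 238 CPM in WT non-Paneth, 86.1 in GRKO non-Paneth, 6.83 in WT Paneth and 5.57 CPM in GRKO Paneth cells.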

How the data were processed

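Per the labels and the methods, single-end reads of stranded TruSeq libraries were trimmed with Trimmomatic 0.39, aligned by the authors with STAR 2.7.10a to mm39 and counted per gene during alignment. The deposited values are raw counts, whole numbers without normalization, for 55414 Ensembl genes, of which 54749 were named through GENCODE vM39. Reads that map to several places are not in such counts. The labels and the methods name different RNA kits. CPM and shares were computed on all gene counts. Fold changes were fitted on all 12 libraries with edgeR 4.0.16 in R 4.3.3 (filterByExpr, TMM, glmQLFit with robust estimates, glmQLFTest, 1 mean per group), with Benjamini-Hochberg adjustment over 13057 genes and a false discovery rate of 5%. The SE is the size of the log2 fold change divided by the square root of F. DESeq2 1.42.0 was an alternative. The procedure was tested on simulated data. The members and lists were chosen with earlier results of these data known, and so no list count is independent support. The genes named are the 10 members, Nr3c1, 2 or more genes per list by level or fold change, and the 5 of highest likeness. Others named were chosen after their values were seen.

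Libraries of 1 number within a genotype are taken to come from 1 mouse, which the labels do not state. With group means removed, WT Paneth and non-Paneth libraries of 1 number correlated at 0.35, 0.23 and 0.24, all above the limit of 0.1, and GRKO libraries at 0.013, 0.26 and 0.47. Between different numbers the WT values ran from -0.21 to 0.0073. In GRKO mice Paneth 1 had 0.13 with non-Paneth 2, and Paneth 2 had 0.21 with non-Paneth 1. The remaining GRKO pairs ran from -0.38 to -0.12. The numbers thus do not settle which GRKO libraries share a mouse. P-values measure the spread between the libraries. No 2 libraries of a group agreed within sampling noise.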

Additional observations from a re-analysis of the deposited data

Results flagged for a closer look

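The genotype effect differed between the cell fractions for 3 of the 10 genes, by the interaction test of edgeR with 3 libraries per group. The difference, the log2 fold change of GRKO against WT in Paneth cells minus that in non-Paneth cells, was 1.67 for Mttp, 1.34 for Dgat1 and 1.63 for Dgat2. In all 3 genes the groups overlapped in Paneth cells and did not overlap in non-Paneth cells. In non-Paneth cells 16.3% of all tested genes had every GRKO library below every WT library in CPM. The calls of Dgat1 and Dgat2 held in 20 of 20 alternatives and that of Mttp in 10 of 20. An interaction above 0 was also called for 25 of 59 other pathway genes and 4 of 11 enterocyte markers, where 11.5% of all tested genes were.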

How the results depend on the processing

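The counts of members called kept within 1.5 times under all alternatives for Paneth against non-Paneth cells, in WT (9 to 10) and in GRKO (9 to 10) mice. Over all tested genes the counts ran from 4990 to 8989 in WT and from 3457 to 10784 in GRKO mice. Apoa4 had no adjusted p in DESeq2, which set it aside as an outlier, and this is not a lost call. Between GRKO and WT in Paneth cells, 0 became 2 with DESeq2 and 6 without the filter on low counts. It was 0 with each library left out. Of all genes tested, DESeq2 called 1464 of 11893, and 1780 of 24077 were called without the filter. Of the 6 genes Fabp1 was higher and the others lower. In non-Paneth cells, 8 called between GRKO and WT became 4 at a false discovery rate of 1% and 4 to 6 with single libraries left out. Without both WT replicate 2 libraries 10 were called. Over all tested genes the counts were 3002 of 13057, 3636 to 4264, and 3610 of 13267 in that order. For the interaction, 3 became 6 without the filter, 9 without both WT replicate 2 libraries, and 2 to 9 with single libraries left out. In the last range 9 is the fit without WT Paneth replicate 2. Over all tested genes 2671 of 24077, 1682 of 13267 and 1563 to 2607 were called in that order. A block by genotype and replicate number changed no call of the members between Paneth and non-Paneth cells, and with it Mttp lost its interaction (2 of 10 called). For the genotype comparisons the block was the replicate number alone, which WT and GRKO libraries of different mice share. With that block Fabp1 and Mogat2 lost their genotype call in non-Paneth cells (6 of 10 called, and 4991 of 13057 tested genes). Of 790 values of single genes, 703 kept their direction and side of the threshold, 28 lost a call, 37 gained one and 22 changed sign.

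In none of the sign changes was a call made. In Paneth cells, without both WT replicate 2 libraries, the log2 fold change between GRKO and WT was 0.024 for Apoa1, 0.084 for Dgat1, 0.12 for Dgat2 and 1.12 for Mogat2. With single libraries left out it ranged from -2.76 to 0.026 for Apoa1, -0.20 to 0.76 for Mttp, -0.35 to 0.086 for Dgat1, -0.16 to 0.12 for Dgat2 and -0.82 to 1.12 for Mogat2. The interaction ranged from -0.35 to 2.44 for Apoa1, -0.35 to 1.85 for Apoa4 and -0.39 to 1.71 for Apoc3, which had -0.089 under library totals. The summed level changed from 2.84 to 2.34% in WT non-Paneth, 0.731 to 0.494% in GRKO non-Paneth and 0.0297 to 0.0391% in GRKO Paneth cells with totals times the TMM factor, and to 0.0510% in the last without Lyz1 and Defa counts. In WT Paneth cells it went from 0.0611 to 0.0879 and 0.113% under the same changes, moving by less than the SD of its 3 libraries (0.0532). The cause of these changes was not tested. Depth limits Apoc3 most, with 10 to 36 counts in GRKO Paneth libraries. Over the whole table, between GRKO and WT Paneth cells, 420 genes were called, and 0 to 1780 under the alternatives.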
